A study of Homo sapiens with 40 samples.

Results

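YAP1 and WWTR1 (the gene for TAZ), the 4 TEAD genes, and the target genes CCN1, CCN2, ANKRD1 and AMOTL2 were examined in the RNA-seq libraries of TGFβ-stimulated mammary spheres and of MDA-MB-231 cells. The 10 genes were taken by symbol from a list, by matching Ensembl identifiers to GENCODE names, and all 10 were found among the 60708 genes counted. YAP and TAZ are transcriptional coactivators that cannot bind DNA alone. The Hippo kinases STK3/STK4 act on the kinases LATS1/LATS2, which phosphorylate YAP and TAZ. When phosphorylated, YAP and TAZ stay in the cytoplasm. When they are not phosphorylated they enter the nucleus, bind TEAD factors and switch on genes such as CCN1 and CCN2. In mammary epithelium they respond to cell contact and matrix stiffness and meet TGFβ signaling at SMAD proteins. RNA levels do not measure the phosphorylation or the location of YAP and TAZ.

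The study has 24 RNA-seq libraries in 8 groups of 3. Its 16 ATAC-seq samples were left aside here. MI-spheres are 3D cultures of MCF-10A, a non-tumorigenic mammary epithelial line, and MII-spheres are made from its HRAS-transformed derivative MCF-10AneoT. Both were grown in ultra-low attachment plates and either left unstimulated (Ctrl) or given TGFβ1 at 2.5 ng/ml for 16 h (TGFβ). MDA-MB-231, a triple-negative breast cancer line, was grown in monolayer as untreated wild-type cells (WT), as cells labelled SLUG KO, or as genotypically wild-type cells given scrambled siRNA (Csi) or siRNAs against SMAD2, SMAD3 and SMAD4 (siSMAD2/3/4). No TGFβ treatment is given on the labels of the 4 MDA-MB-231 groups. The SLUG KO cells were made with a Cas9 ribonucleoprotein and 1 guide at the start of SNAI2 and were grown up from sorted single cells, and how many clones the 3 libraries represent is not given in the sources used here. The study describes its results in general as coming from independent biological repeats. Neither the labels nor the RNA-seq methods say which culture each library came from, so p-values measure the spread between these libraries, part of which may be technical.

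Between 14124688 and 38406952 fragments were counted on genes per library, and Pearson's r across genes between log2 levels of libraries in 1 group was 0.984 to 0.994 in 7 groups. In the WT group r reached down to 0.952, and WT replicate 2 stood apart from replicates 1 and 3. The comparisons with WT are therefore given with and without it. HRAS stood at 40.8 ± 1.01 CPM in unstimulated MI- and 220.4 ± 4.1 CPM in unstimulated MII-spheres (SD, n = 3). SMAD2, SMAD3 and SMAD4 fell with their siRNAs, by 1.92, 0.69 and 1.72 on the log2 scale. SNAI2 RNA was higher, not lower, in the libraries labelled SLUG KO (57.8 to 64.3 CPM) than in WT (20.9 to 33.7 CPM; log2 1.10 ± 0.214, edgeR adjusted p = 0.0399). The call was lost in 5 of 6 fits that left out 1 library, with log2 values of 0.94 to 1.25. A small deletion at the guide's site need not change its count. The 8 epithelial markers called basal here were KRT5, KRT14, KRT17, KRT6A, TP63, DSG3, CDH1 and EPCAM, of which CDH1 and EPCAM are not specific to basal cells. They summed to at least 1153 CPM in every sphere library and to at most 43 CPM in every MDA-MB-231 library. In MII Ctrl, CDH1 averaged 566 CPM, KRT17 330 CPM, EPCAM 187 CPM and TP63 0.621 CPM. VIM and ZEB1 together summed to at most 13.7 CPM in spheres and to at least 635 CPM in MDA-MB-231. KRT5 and DSG3 had no count in WT.

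A level is given as CPM, the count scaled to a common library size after TMM scaling of all 24 libraries together. A log2 fold-change comes from the 6 libraries of its own comparison with their own scaling, and both scales differ by at most 0.0868 (log2) for the members at over 1 CPM. A gene is said to pass, rise or fall when its adjusted p is under 0.05 (edgeR, quasi-likelihood F test, p adjusted by Benjamini and Hochberg's method over every gene tested), and DEG means in addition an absolute log2 fold-change above 1. In bulk RNA, fewer cells expressing a gene and less RNA per cell cannot be told apart.

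The regulatory sequence before CCN2 and ANKRD1 is shown because these 2 genes differed most between WT MDA-MB-231 and MI-spheres and hold the letters that TEAD factors read more than once. The AMOTL2 stretch is shown because it holds them on the same strand as the gene. Windows of 300 bases around gene starts (250 before, 50 after) came from RefSeq on GRCh38.p14 and were found for 7 of the 10 genes, with 10 starts in all. CCN1, TEAD1 and TEAD4 had no entry. Capitals mark the TEAD motif CATTCC, which on the other strand reads GGAATG. Bases are counted back from the gene start, the last base before it being -1.
CCN2, chr6:131951373-131951622, minus strand, bases -250 to -1: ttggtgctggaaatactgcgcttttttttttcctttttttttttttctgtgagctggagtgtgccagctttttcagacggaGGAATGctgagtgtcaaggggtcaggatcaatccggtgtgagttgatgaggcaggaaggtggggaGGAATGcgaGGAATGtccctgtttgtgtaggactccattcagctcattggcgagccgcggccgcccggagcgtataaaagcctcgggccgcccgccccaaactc
ANKRD1, chr10:90921088-90921337, minus strand, bases -250 to -1: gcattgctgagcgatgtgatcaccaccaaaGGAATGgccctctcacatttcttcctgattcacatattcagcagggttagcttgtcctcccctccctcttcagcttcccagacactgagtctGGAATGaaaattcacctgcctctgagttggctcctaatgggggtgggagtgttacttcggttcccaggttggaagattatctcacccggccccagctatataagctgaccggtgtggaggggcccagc
AMOTL2, chr3:134374502-134374531, minus strand, bases -84 to -55 of the inner of its 2 starts: aacctgaaactctcaCATTCCtggcatagc

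The CCN2 window held the TEAD letters 3 times, starting at bases -169, -104 and -95, and the ANKRD1 window held them 2 times, starting at -220 and -128. All 5 lay on the other strand. The inner AMOTL2 start held them once, at -69, and the YAP1 window once, at -162, whereas the windows of WWTR1, TEAD2 and TEAD3 and the outer AMOTL2 start held none. Of 35116 RefSeq windows of the same length, 14% held CATTCC on either strand. The SMAD letters CAGAC stood in the CCN2 window at -177, in the ANKRD1 window at -142 and, on the other strand, at -132, where the match shares 1 base with the TEAD letters at -128. They also stood once in the outer AMOTL2 window and once in a WWTR1 window, and 45.3% of all windows hold them. The AP-1 letters TGANTCA were found only for ANKRD1, at -195, without overlap with the other motifs, and in 7.71% of all windows. These matches are descriptions of letters and not binding sites.

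YAP1 lies on chromosome 11 (102110447 to 102233424, plus strand, GRCh38) and WWTR1 on chromosome 3 (149517235 to 149736714, minus strand). The strand was ignored in counting, and 10.1% of the exonic bases of YAP1 and 9.05% of those of WWTR1 are shared with genes on the opposite strand (for WWTR1 with WWTR1-AS1), so reads in those bases cannot be told apart. YAP1 was measured at 143, 148 and 146 CPM in the 3 MI Ctrl libraries and at 182, 183 and 188 CPM in MI TGFβ. In MII Ctrl it stood at 107.4, 103.7 and 107.6 CPM, and in MII TGFβ at 104.5, 108.2 and 106.7 CPM. The stimulated MI-spheres were thus all above the unstimulated ones, while the MII libraries overlapped and were the lowest of all 8 groups. In MDA-MB-231 the level was 212, 177 and 217 CPM in WT, 184, 215 and 189 CPM in SLUG KO, 261, 268 and 261 CPM in Csi and 250.1, 243 and 254 CPM in siSMAD2/3/4. In order, Csi came before siSMAD2/3/4, WT, SLUG KO, MI TGFβ, MI Ctrl, MII TGFβ and MII Ctrl, and the ranges overlapped for 3 neighbouring pairs: WT and SLUG KO, SLUG KO and MI TGFβ, and the 2 MII groups.

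WWTR1 had a different order from its paralogue. It was lowest in MI Ctrl at 32.4, 33.8 and 33.9 CPM and stood at 48.5, 49.5 and 47.2 CPM in MI TGFβ. MII Ctrl had 70.9, 75.4 and 71.7 CPM and MII TGFβ 89.1, 98.6 and 90.1 CPM. So WWTR1 was higher in every MII library than in every MI library, where YAP1 was lower. WT had 91.8, 84.3 and 87 CPM, SLUG KO 49.9, 57 and 51.3 CPM, Csi 181, 198.5 and 189.5 CPM and siSMAD2/3/4 197.5, 196 and 201 CPM. Of the neighbours in the order of the 8 groups, siSMAD2/3/4 overlapped Csi, and MII TGFβ overlapped WT. Csi and siSMAD2/3/4 carry another batch label than the other 18 libraries, and for these 2 groups the batch and the group cannot be told apart when their levels are set beside the others.

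The balance of the coactivators, as the ratio of YAP1 to WWTR1 levels per exonic length, was 5.78 ± 0.0703 in MI Ctrl, 5.05 ± 0.206 in MI TGFβ, 1.94 ± 0.101 in MII Ctrl and 1.52 ± 0.0624 in MII TGFβ (SD, n = 3). In MDA-MB-231 it was 3.05 ± 0.266 in WT (3.18 without replicate 2), 4.91 ± 0.0632 in SLUG KO, 1.84 ± 0.0637 in Csi and 1.67 ± 0.0186 in siSMAD2/3/4. YAP1 exceeded WWTR1 per length in all 24 libraries, and the smallest ratio was 1.45, in an MII TGFβ library. Among spheres, the 4 groups did not overlap in this ratio.

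The TEAD genes code for the DNA-binding partners. They lie on chromosomes 11 (TEAD1, 12674421 to 12944737, plus strand), 19 (TEAD2, 49340595 to 49362457, minus strand), 6 (TEAD3, 35473597 to 35497079, minus strand) and 12 (TEAD4, 2959330 to 3040676, plus strand), and TEAD2 shares 10.7% of its exonic bases with CD37 on the opposite strand. Their levels per exonic length, summed, were 25.2 ± 0.905 CPM per kilobase in MI Ctrl, 26 ± 0.886 in MI TGFβ, 31.3 ± 0.494 in MII Ctrl and 35.6 ± 0.478 in MII TGFβ (SD, n = 3). In MDA-MB-231 the sum was 60.5 ± 15.2 in WT (51.8 without replicate 2), 45.5 ± 1.46 in SLUG KO, 79.8 ± 2.11 in Csi and 84.8 ± 1.46 in siSMAD2/3/4. Between the sphere groups the makeup of that sum differed too. TEAD2 made up 6.97% ± 1.2 of it in MI Ctrl, 20.3% ± 2.54 in MI TGFβ, 33.6% ± 2.38 in MII Ctrl and 39.5% ± 0.881 in MII TGFβ. TEAD3 was the largest share in MI Ctrl (45.5% ± 1.56), and TEAD1 was the largest in each MDA-MB-231 group (43.9% to 52.6% on average, and 57.7% in WT without replicate 2). TEAD4 had the smallest share in MI TGFβ, both MII groups, Csi and siSMAD2/3/4, from 4.38% ± 0.46 in MII Ctrl to 9.31% ± 0.962 in Csi, and TEAD2 had the smallest in MI Ctrl, WT and SLUG KO. TEAD1 had the largest share in 15 of the 24 libraries per length, and in all 24 by counts without the length, since TEAD1 has the longest exonic sequence (10700 bases).

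**Figure D1:**
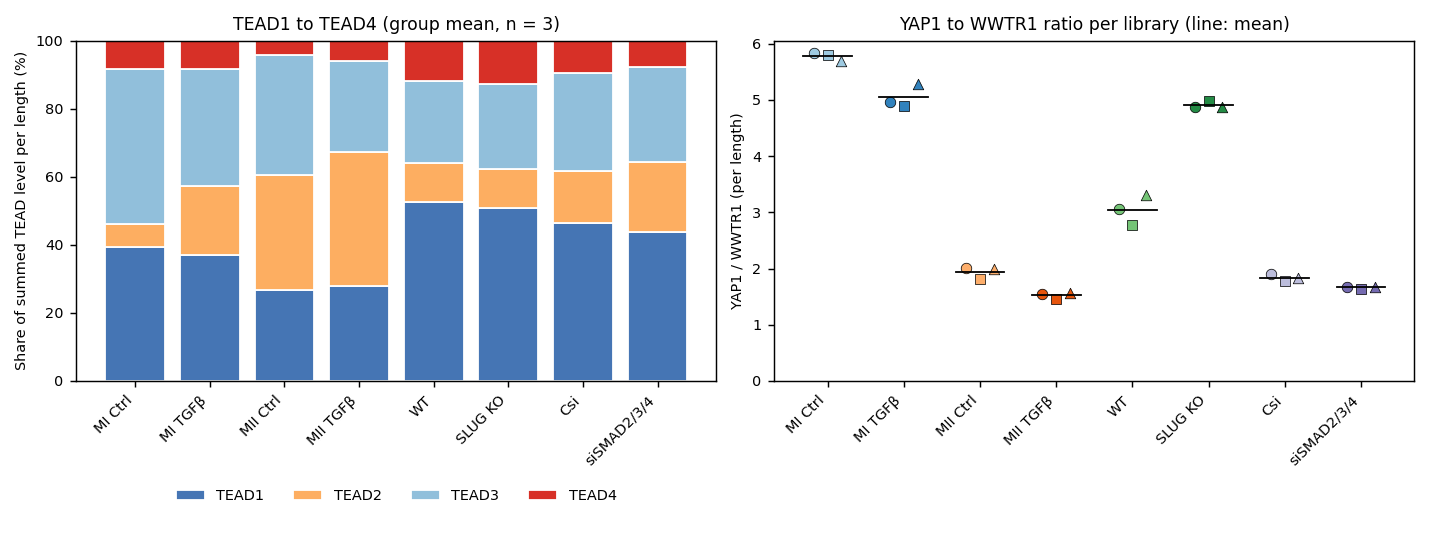
Share of TEAD1 to TEAD4 in their summed level per exonic length (left, percent, stacked group means, n = 3) and the ratio of YAP1 to WWTR1 per length in each library (right, symbols for replicates 1 to 3, line for the mean). TEAD2 takes 6.97% of the sum in MI Ctrl and 39.5% in MII TGFβ, and the ratio runs from 5.78 in MI Ctrl to 1.52 in MII TGFβ.

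TEAD1, the most widely expressed family member, was found at 109.2, 110.5 and 98.9 CPM in MI Ctrl, 107.7, 105.1 and 95.7 CPM in MI TGFβ, 85.3, 90.3 and 93.6 CPM in MII Ctrl and 105.6, 111.2 and 101.7 CPM in MII TGFβ. All 12 MDA-MB-231 libraries were above all spheres, with 348, 351.5 and 293 CPM in WT, 242, 249.4 and 250.6 CPM in SLUG KO, 389 to 407 CPM in Csi and 396 to 400.4 CPM in siSMAD2/3/4. In the order of TEAD1 levels, siSMAD2/3/4 overlapped Csi, and MI Ctrl, MII TGFβ and MI TGFβ overlapped each other in turn. TEAD2 was measured at 4.4, 5.3 and 5.97 CPM in MI Ctrl and at 15.3, 14.5 and 17.3 CPM in MI TGFβ. In MII-spheres it stood at 32.7, 28.9 and 32.3 CPM without and 41.6, 41.3 and 42.6 CPM with TGFβ. The TEAD2 ranges of the 4 sphere groups did not touch, and the level followed the order MI Ctrl, MI TGFβ, MII Ctrl, MII TGFβ. TEAD2 was 16, 30.3 and 16.6 CPM in WT, 17.7, 11.9 and 16.4 CPM in SLUG KO, 35.5, 35.2 and 38.5 CPM in Csi and 51.7, 50.8 and 52.5 CPM in siSMAD2/3/4. Over all groups siSMAD2/3/4 came first, then MII TGFβ and Csi, all separate, while WT overlapped MII Ctrl and MI TGFβ, and MI TGFβ overlapped SLUG KO. Without replicate 2 WT lay below MII Ctrl and still overlapped MI TGFβ. TEAD3 stayed between 24.7 and 36.4 CPM in all sphere libraries and between 67 and 75.2 CPM in Csi and siSMAD2/3/4. WT replicate 2 had 76.7 CPM of TEAD3, against 32.3 and 31 CPM in the other WT libraries and 34.5 to 35.3 CPM in SLUG KO. TEAD4 stayed between 2.89 and 6.05 CPM in spheres and between 12 and 21.9 CPM in MDA-MB-231. For TEAD4 the 4 MDA-MB-231 groups overlapped their neighbours in the order Csi, WT, siSMAD2/3/4 and SLUG KO, and so did MI TGFβ, MII TGFβ and MI Ctrl.

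The matricellular proteins CCN1 (CYR61; chromosome 1, 85580761 to 85584589, plus strand) and CCN2 (CTGF; chromosome 6, 131948176 to 131951372, minus strand) are the most used readouts of YAP/TAZ activity. CCN1 stood at 12.2, 10.2 and 10.7 CPM in MI Ctrl and at 3.79, 4.17 and 4.26 CPM in MI TGFβ. MII Ctrl had 19.2, 17.1 and 18.4 CPM and MII TGFβ 6.09, 5 and 7.88 CPM. In both lines every stimulated library lay below every unstimulated one. In MDA-MB-231 CCN1 was at 223, 747 and 206 CPM in WT, 208, 244 and 219 CPM in SLUG KO, 319, 338 and 346 CPM in Csi and 302, 293 and 299 CPM in siSMAD2/3/4. The WT mean of 392 ± 307 CPM (SD, n = 3) rests on replicate 2 and was 215 CPM without it, inside the range of SLUG KO. Among MDA-MB-231 groups the ranges of Csi, siSMAD2/3/4 and SLUG KO were separate, in that order, and all were above the spheres, where the order was MII Ctrl, MI Ctrl, MII TGFβ and MI TGFβ.

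CCN2 stood at 1.81, 1.3 and 1.82 CPM in MI Ctrl and 2.03, 1.66 and 2.38 CPM in MI TGFβ, and these ranges overlapped. MII Ctrl had 15.2, 13.8 and 13.4 CPM and MII TGFβ 6.16, 8.2 and 8.43 CPM. In MDA-MB-231 CCN2 was at 125, 162 and 132 CPM in WT, 67.8, 76.7 and 70.3 CPM in SLUG KO, 145.5, 145 and 145 CPM in Csi and 96.8, 97.9 and 92.3 CPM in siSMAD2/3/4. In the order of the groups, Csi overlapped WT, and the 2 MI groups overlapped. The overlap of Csi and WT rests on WT replicate 2, and the other WT libraries lay below Csi. Of the exonic bases of CCN2, 8.34% are shared with a gene on the opposite strand.

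ANKRD1 (chromosome 10, 90912096 to 90921087, minus strand) codes for a nuclear ankyrin-repeat protein induced by mechanical load. It was close to absent from spheres: the 3 libraries of a group together held 2 fragments in MI Ctrl, 1 in MI TGFβ and 4 in MII Ctrl, and 2, 3 and 40 in the single MII TGFβ libraries. These 40 fragments, or 2.72 CPM, were in MII TGFβ replicate 3. The summed level of 5 other genes that averaged 100 CPM or more in WT replicates 1 and 3 and below 0.5 CPM in spheres was 0.401% of its WT level in that library, 0.648% in MI TGFβ replicate 2 and 0.0186% to 0.203% in the other 10 sphere libraries. The part of such RNA in the value was not tested. ANKRD1 was removed by the low-count filter of each sphere comparison. Without a filter and in DESeq2 it was called higher in MII TGFβ than in MII Ctrl (log2 3.86 and 4.07), which rests on that library. In MDA-MB-231 ANKRD1 stood at 295, 142 and 337 CPM in WT, 498, 411 and 494 CPM in SLUG KO, 134, 154 and 144 CPM in Csi and 139.6, 141 and 155 CPM in siSMAD2/3/4. Every SLUG KO library was above all others, and WT overlapped siSMAD2/3/4, which overlapped Csi. The overlap of WT rests on replicate 2, and the other WT libraries lay above siSMAD2/3/4 and Csi.

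AMOTL2 (chromosome 3, 134355347 to 134375479, minus strand) is a target that also acts back on the pathway, since angiomotin-like proteins hold YAP at cell junctions. It was measured at 60.3, 54.9 and 58.8 CPM in MI Ctrl and 21.9, 20.1 and 18.2 CPM in MI TGFβ. MII Ctrl had 34.8, 38.7 and 35.9 CPM and MII TGFβ 34.8, 33.9 and 39.2 CPM. The stimulated MI-spheres were the lowest of all groups, and the 2 MII groups overlapped each other and lay between the 2 MI groups. In MDA-MB-231 AMOTL2 was at 119.7, 314 and 134 CPM in WT, 193, 172 and 185 CPM in SLUG KO, 105.1 to 110.5 CPM in Csi and 144, 145 and 137 CPM in siSMAD2/3/4. WT overlapped SLUG KO only through replicate 2, whereas SLUG KO, siSMAD2/3/4, Csi and the spheres were separate, in falling order. Without replicate 2 WT averaged 126.7 CPM, and its libraries lay below SLUG KO and siSMAD2/3/4 and above Csi. Of its exonic bases 2.89% are shared with the pseudogene RPL39P5.

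**Figure D2:**
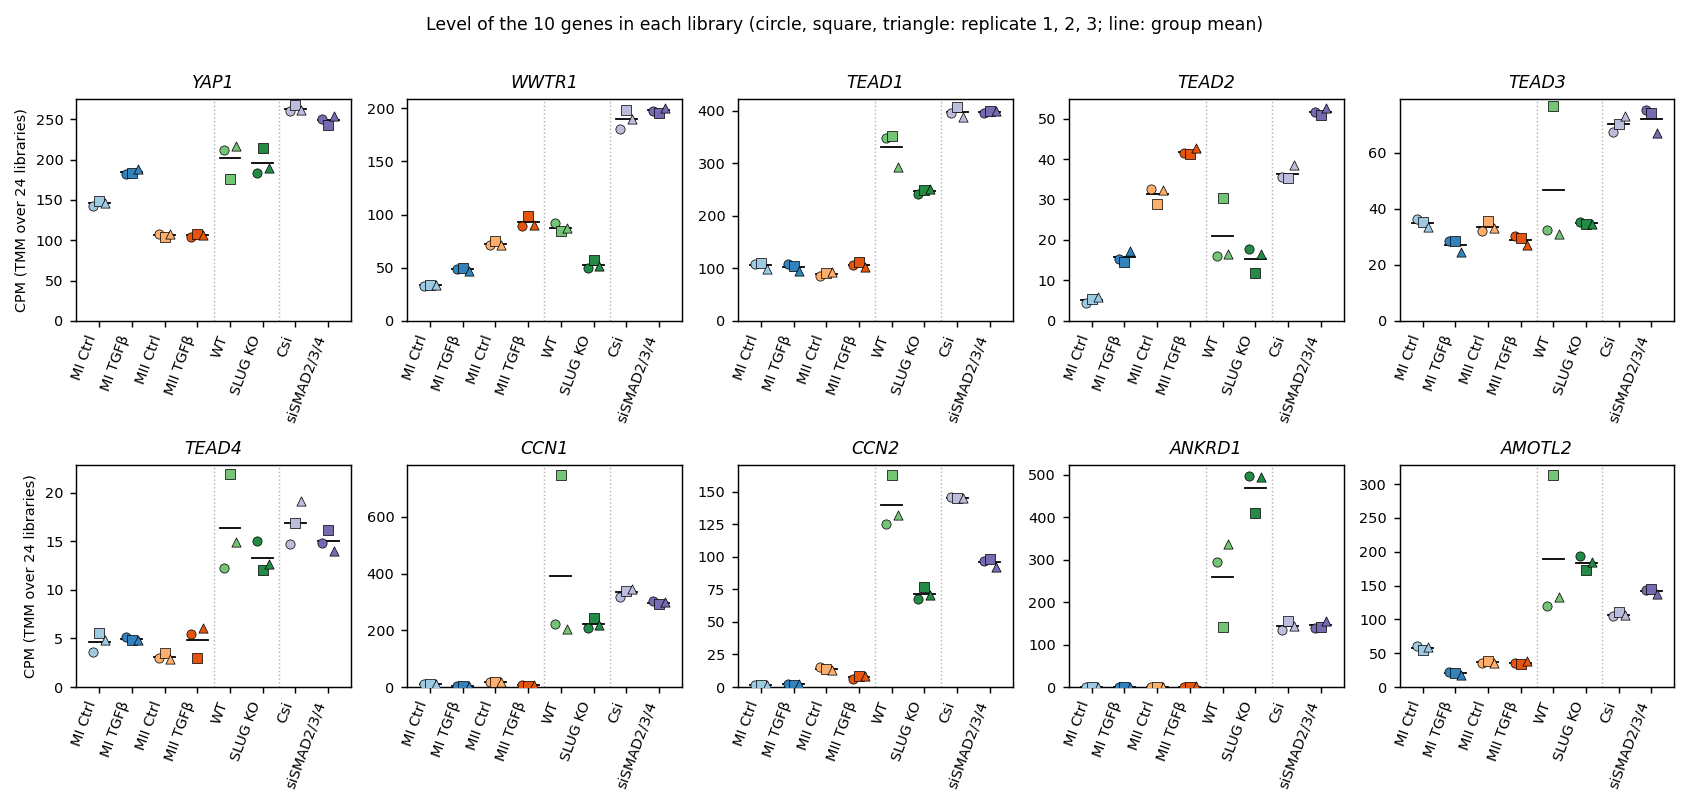
Level of each of the 10 genes (CPM, linear axes from 0) in the 24 libraries by group, with a symbol for replicates 1 to 3 and a line for the group mean. The 4 target genes in the lower row are higher in the 4 MDA-MB-231 groups than in spheres, for ANKRD1 with 134 to 498 CPM against at most 2.72 CPM, and WT replicate 2 (square) lies away from the other WT libraries for CCN1, AMOTL2, TEAD3 and ANKRD1.

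The first question was how TGFβ moved these genes in MI-spheres. Of the 9 genes tested there (ANKRD1 had too few counts), 6 passed and 3 did not. Among all 16863 genes tested 56% passed, so that count is close to the background. TEAD2 rose by a log2 fold-change of 1.52 ± 0.121 (SE, edgeR adjusted p = 1.06e-09), or 2.87-fold. AMOTL2 and CCN1 fell by 1.62 ± 0.0767 and 1.51 ± 0.127 on the log2 scale (edgeR adjusted p = 2.17e-13 and 2.63e-09). These 3 were DEGs, where 13.6% of all genes were. The coactivators rose less, WWTR1 by 0.46 ± 0.0651 (adjusted p = 5.02e-06) and YAP1 by 0.26 ± 0.0493 (adjusted p = 0.000152), and TEAD3 fell by 0.45 ± 0.0774 (adjusted p = 5.01e-05). CCN2 did not pass, with a log2 fold-change of 0.21 ± 0.246 (adjusted p = 0.477), nor did TEAD1 (-0.13 ± 0.0624, adjusted p = 0.0833) or TEAD4 (0.00 ± 0.162, adjusted p = 0.985). TEAD1 passed with a stricter filter of at least 10 counts in every library and with a replicate block, at -0.17 and -0.13. The basal markers summed to 2212 to 2268 CPM in MI Ctrl and to 4440 to 4856 CPM in MI TGFβ, and the part of that shift in these results was not tested.

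In MII-spheres 7 of the 9 genes tested passed, and 57.6% of the 16396 genes tested did. CCN1 fell by 1.56 ± 0.118 (edgeR adjusted p = 1.89e-16) and was the only DEG, with 10.6% of all genes DEGs. CCN2 fell by 0.92 ± 0.117 (adjusted p = 2.22e-09), and TEAD3 fell by 0.26 ± 0.0684 (adjusted p = 0.001). WWTR1 rose by 0.31 ± 0.0506 (adjusted p = 6.53e-07), TEAD2 by 0.39 ± 0.0656 (adjusted p = 1.1e-06) and TEAD1 by 0.21 ± 0.0477 (adjusted p = 0.000249). TEAD4 rose by 0.57 ± 0.198 (adjusted p = 0.012), although its ranges of 2.89 to 3.48 and 3 to 6.05 CPM overlap, and it did not pass without MII TGFβ replicate 1 (0.49) or replicate 3 (0.38) or in DESeq2 (0.62). AMOTL2, at -0.06 ± 0.0667 (adjusted p = 0.416), and YAP1, at -0.03 ± 0.0448 (adjusted p = 0.586), did not pass. Basal markers summed to 1153 to 1205 CPM without and 2636 to 2771 CPM with TGFβ in this line, and their part was not tested. Without MII TGFβ replicate 3, 52% of the genes tested passed, and the fall of CCN1 was 1.73 on the log2 scale.

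Whether the lines differed in their response was tested as the interaction of line and TGFβ in 1 fit of the 12 sphere libraries. The difference, MII response minus MI response, passed for 5 of 9 genes, against 22.4% of the 18591 genes tested. AMOTL2 differed most, by 1.57 ± 0.106 (log2, SE, edgeR adjusted p = 8.48e-15), as it fell in MI-spheres and did not pass in MII-spheres. CCN2 differed by -1.13 ± 0.251 (adjusted p = 0.000698) and TEAD2 by -1.12 ± 0.133 (adjusted p = 1.38e-08). The differences for TEAD1 (0.35 ± 0.08, adjusted p = 0.0011) and YAP1 (-0.28 ± 0.0651, adjusted p = 0.00122) were smaller. For CCN1 the difference was -0.03 ± 0.189 (adjusted p = 0.934), and it did not pass for WWTR1 (-0.13 ± 0.0831), TEAD3 (0.20 ± 0.105) and TEAD4 (0.58 ± 0.269) either. Of the 3 tested target genes, CCN1 fell in both lines, AMOTL2 in MI only and CCN2 in MII only. Among all genes tested, 4613 of 16863 fell in MI and 4532 of 16396 in MII. The share of all genes that fell in at least 1 line was not counted.

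**Figure D3:**
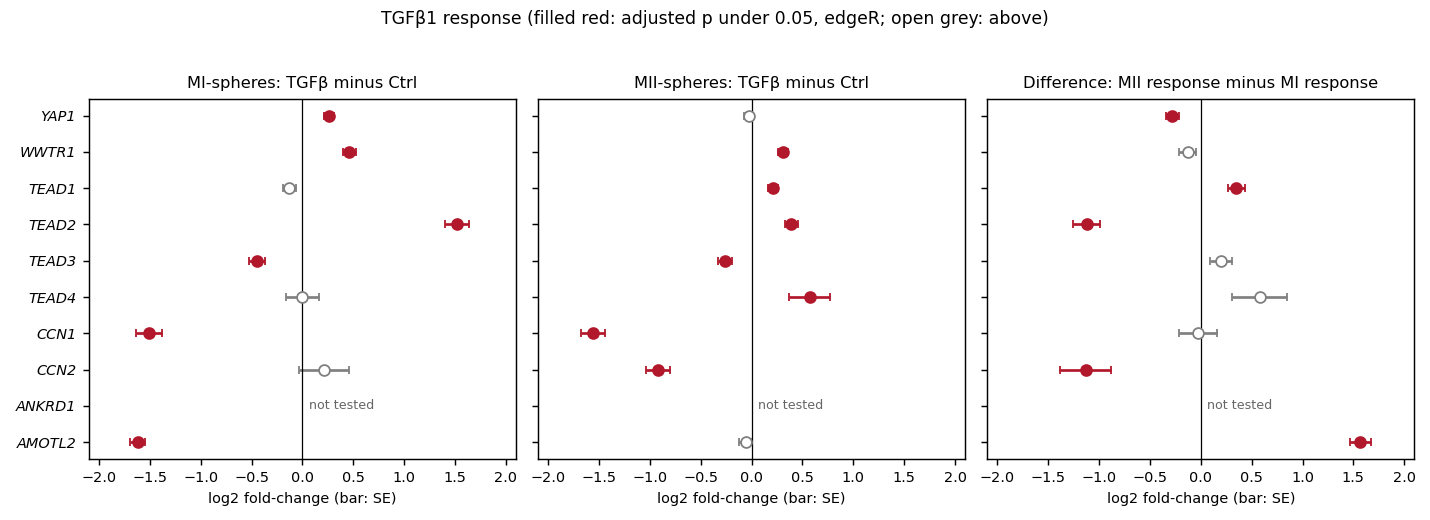
Log2 fold-change with TGFβ (point, bar for SE) of the 10 genes in MI-spheres, in MII-spheres and as the difference of the 2 responses, with filled red points at adjusted p under 0.05. CCN1 lies near -1.5 in both lines, AMOTL2 at -1.62 in MI and -0.06 in MII, and TEAD2 at 1.52 and 0.39, while ANKRD1 was not tested.

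Hippo regulators and further targets were read from lists of 20 and 16 genes. Of 20 regulators in MI-spheres, 9 rose, 4 fell and 7 did not pass, and the median log2 fold-change was 0.14 for these regulators, while all genes had -0.017. Among all 16863 genes tested there 56% passed, with 4833 higher and 4613 lower. VGLL1, a TEAD cofactor that competes with YAP, fell by 3.09 ± 0.184 on the log2 scale, from 9.41 ± 0.184 to 1.18 ± 0.36 CPM (SD, n = 3). FRMD6, an upstream activator of the pathway, rose by 1.05 ± 0.0536, from 92.2 ± 4.38 to 202 ± 9.23 CPM. The kinase LATS2, itself a YAP/TAZ target, fell by 0.96 ± 0.114, and AMOT rose by 0.51 ± 0.165 (edgeR adjusted p = 0.0123, but 0.0636 in DESeq2 and 0.0517 without MI Ctrl replicate 1). In MII-spheres 10 regulators rose, 1 fell and 9 did not pass (list median 0.13, all genes -0.018). Among all 16396 genes tested 57.6% passed, with 4906 higher and 4532 lower. FRMD6 rose by 1.08 ± 0.064, from 25.6 ± 1.12 to 55.3 ± 2.94 CPM, VGLL1 fell by 0.78 ± 0.15, AMOT rose by 0.70 ± 0.116, and NF2, the scaffold that activates LATS kinases, rose by 0.41 ± 0.0456. The response of VGLL1 differed between the lines by 2.33 ± 0.27 and that of LATS2 by 0.93 ± 0.138 (edgeR adjusted p = 9e-09 and 1.35e-06).

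Of 16 other target genes in MI-spheres, 2 rose, 6 fell and 8 did not pass, with a median of -0.10, and 56% of all genes tested passed. CCDC80, a secreted matrix protein, fell from 119.3 ± 3.58 to 45.9 ± 0.469 CPM, or by 1.46 ± 0.0561 on the log2 scale. TGFB2, the ligand TGFβ2, fell by 0.98 ± 0.293 from a low level of 1.6 ± 0.0615 CPM (adjusted p = 0.00777, and 0.0759 in DESeq2). DOCK5 fell by 0.67 ± 0.062 and IGFBP3 by 0.66 ± 0.0498. In MII-spheres 15 of the 16 were tested, of which 6 rose, 6 fell and 3 did not pass (median 0.00), and 57.6% of all genes passed. CCDC80 fell by 1.00 ± 0.0501, from 119.4 ± 1.1 to 61.2 ± 4.13 CPM, DOCK5 by 0.66 ± 0.0431 and ASAP1 by 0.68 ± 0.11. FOXF2 rose by 0.67 ± 0.236 (adjusted p = 0.0133, and 0.0674 in DESeq2 and 0.0647 without MII TGFβ replicate 2). For this list the response differed between the lines in 7 of 16 genes, higher in MII for 6 of them, and the median difference was 0.17. Among all 18591 genes tested 22.4% passed, 2344 with a higher and 1812 with a lower response in MII. NT5E, the surface enzyme CD73, differed by 0.90 ± 0.11 (edgeR adjusted p = 3.36e-08) and IGFBP3 by 0.75 ± 0.0588 (adjusted p = 5.17e-13).

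**Figure D4:**
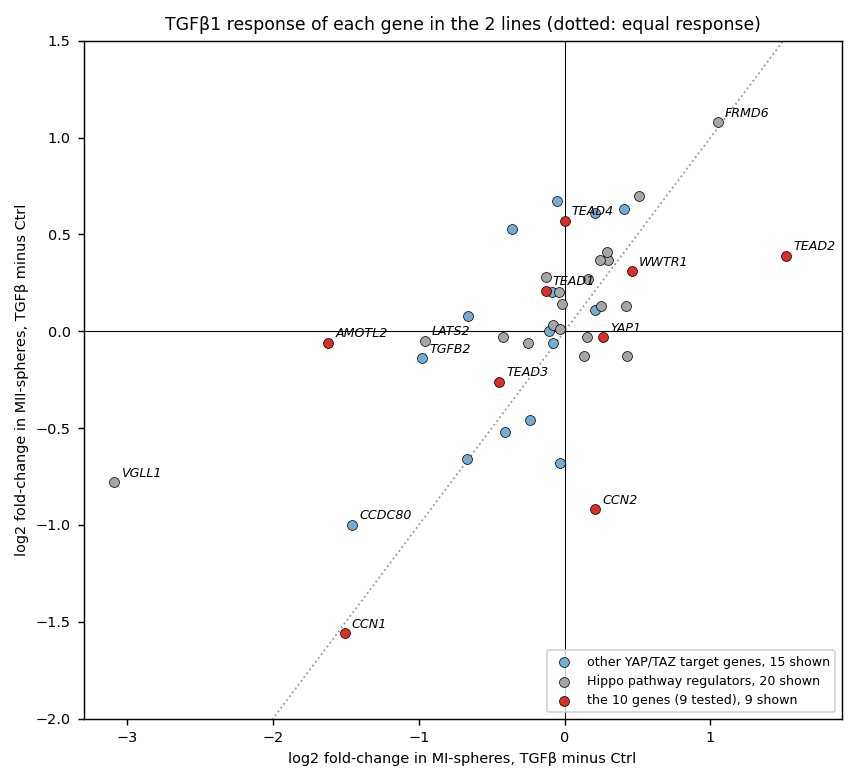
Log2 fold-change with TGFβ in MI-spheres (x axis) against MII-spheres (y axis) for the 9 tested members (red), 20 Hippo regulators (grey) and 15 other target genes tested in both lines (blue), with a dotted line at equal responses. CCN1 and FRMD6 lie near the line, AMOTL2, VGLL1 and LATS2 above it, and CCN2 and TEAD2 below it.

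Among the remaining CCN family genes, CCN3 rose in MII-spheres from 1.11 ± 0.293 to 2.11 ± 0.424 CPM (log2 0.83 ± 0.286, edgeR adjusted p = 0.0112), a call that was lost in DESeq2 (adjusted p = 0.0624), without MII Ctrl replicate 1 (0.0509) and without MII TGFβ replicate 3 (0.0841). CCN5 fell there from 63.8 ± 5.96 to 50.9 ± 3.75 CPM (log2 -0.37 ± 0.062, adjusted p = 1.36e-06). In MI-spheres CCN3 (0.27), CCN4 (0.37) and CCN5 (-0.08) did not pass. CCN5 stood at 3.95 ± 0.0589 CPM in MI Ctrl, and CCN4, the WNT-induced member, at 2.06 ± 0.756 CPM there and at 0.0705 ± 0.0613 CPM in MII Ctrl. CCN6 stayed at or below 0.0882 CPM on average in all 8 groups and was not tested.

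The next question was how the HRAS-transformed spheres differed from MI-spheres without stimulation. Of 9 genes tested 8 passed, 4 higher and 4 lower, against 64.2% of the 17862 genes tested. CCN2 was higher in MII by 3.10 ± 0.145 (log2, SE, edgeR adjusted p = 4.98e-26), or 8.55-fold, and TEAD2 by 2.60 ± 0.0958 (adjusted p = 9.4e-31), or 6.07-fold. WWTR1 was 2.2-fold higher (1.14 ± 0.0553, adjusted p = 2.69e-25). These were the 3 DEGs, with 20.1% of all genes DEGs. CCN1 was higher by 0.72 ± 0.0903 (adjusted p = 5.19e-10). AMOTL2 was lower, by -0.65 ± 0.0582 (adjusted p = 1.43e-14), as were YAP1 (-0.45 ± 0.0407, adjusted p = 2.75e-14), TEAD4 (-0.54 ± 0.175, adjusted p = 0.00626, but 0.067 without MI Ctrl replicate 2) and TEAD1 (-0.23 ± 0.0461, adjusted p = 1.72e-05). TEAD3 did not pass (-0.04 ± 0.0619, adjusted p = 0.585). The paralogues YAP1 and WWTR1 therefore differed between the lines in opposite directions, as did the targets CCN2 and AMOTL2. Under TGFβ 6 of 9 passed, against 62.7% of 15878 genes tested. CCN2 was higher in MII by 1.98 ± 0.191, TEAD2 by 1.49 ± 0.0793, WWTR1 by 1.01 ± 0.0633 and CCN1 by 0.70 ± 0.176, YAP1 was lower by -0.72 ± 0.0497, and AMOTL2 was higher by 0.92 ± 0.09 (edgeR adjusted p from 1.04e-13 to 0.00134). AMOTL2 thus stood below the MI level without and above it with TGFβ. Of the 8 basal markers, KRT5, KRT6A, KRT17, TP63 and DSG3 were lower in MII Ctrl than in MI Ctrl, and KRT14, EPCAM and CDH1 were higher, with no overlap between the libraries of both groups, and their sum was 1153 to 1205 CPM in MII Ctrl. The 5 luminal markers summed to 1282 to 1321 CPM in MI Ctrl and 2308 to 2367 CPM in MII Ctrl, mostly KRT8 and KRT18. KRT8, KRT18 and GATA3 were higher in MII Ctrl. FOXA1 was lower there (81.4 against 101.8 CPM), and so was ESR1 (3.18 against 7.67 CPM). PECAM1, an endothelial marker, averaged 9.8 CPM in MI Ctrl and 104.7 CPM in MII Ctrl, with PTPRC at or near 0. Under TGFβ the luminal sum was 1451 to 1539 CPM in MI and 2772.5 to 2920 CPM in MII. The part of these markers in the differences between lines was not tested.

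Between the unstimulated lines, 7 regulators were higher in MII, 6 lower and 7 did not pass, with a median of -0.02. Among all 17862 genes tested 64.2% passed, with 5665 higher and 5809 lower in MII. AMOTL1, an angiomotin family member, was lower in MII by -2.0 ± 0.0501, at 30.7 ± 0.759 against 125 ± 1.15 CPM, and FRMD6 by -1.84 ± 0.0567. AMOT was higher by 1.28 ± 0.146, and VGLL3 was lower by -1.06 ± 0.074. Of the other targets, 8 were higher, 5 lower and 3 did not pass (median 0.18). TGFB2 was higher by 5.64 ± 0.0912, at 78.9 ± 0.472 CPM in MII Ctrl, and IGFBP3 by 2.20 ± 0.0351, at 2269 ± 42 CPM. The receptor kinase AXL was lower by -2.06 ± 0.107 and FJX1 by -1.90 ± 0.183. Under TGFβ, 10 regulators were higher in MII and 6 lower (median 0.15), with VGLL1 at 2.31 ± 0.26, AMOTL1 at -2.18 ± 0.0672, LATS2 at 1.82 ± 0.101 and FRMD6 at -1.79 ± 0.0546. Among all 15878 genes tested 62.7% passed, with 4937 higher and 5013 lower in MII. Of the other targets 7 were higher and 6 lower (median 0.20), with TGFB2 at 6.48 ± 0.118, NUAK2 at -3.14 ± 0.518, IGFBP3 at 2.96 ± 0.0477 and AXL at -2.13 ± 0.253. AXL was at -3.09 without MII TGFβ replicate 3, and NUAK2, which averaged 0.179 ± 0.168 CPM in MII TGFβ (SD, n = 3), was at -3.93 without MII TGFβ replicate 2. CCN5 was higher in MII by 4.03 ± 0.0857 without and 3.76 ± 0.102 with TGFβ, and CCN4 was lower in both (edgeR adjusted p = 5.04e-12 and 8.91e-09).

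SLUG, the protein of SNAI2, is a transcriptional repressor that can bind YAP and TAZ, and SLUG KO was compared with WT. The SLUG KO cells were grown up from single cells, so clonal differences and loss of SLUG cannot be told apart. Of the 10 genes 1 passed, CCN2, with a log2 fold-change of -0.99 ± 0.176 (SE, edgeR adjusted p = 0.0297), and 3.33% of the 17428 genes tested did. This call held in DESeq2 but was lost without each of the SLUG KO libraries, without WT replicate 1 or 3 and with the replicate block (adjusted p from 0.0615 to 0.227), while the log2 fold-change stayed between -1.03 and -0.86 in all 12 alternatives and the groups did not overlap. WWTR1 missed the threshold at -0.76 ± 0.16 (adjusted p = 0.0529) but passed in DESeq2 (0.0139), and its groups did not overlap. TEAD1 (-0.45 ± 0.166, adjusted p = 0.21) and ANKRD1 (0.83 ± 0.314, adjusted p = 0.216) did not pass, and their ranges did not overlap. The share of all genes with separate ranges was not counted, so separate ranges are a description only. The other members overlapped, AMOTL2 and TEAD3 only through WT replicate 2. CCN1 was at -0.84 ± 0.492, TEAD2 at -0.48 ± 0.302, TEAD3 at -0.45 ± 0.362, TEAD4 at -0.34 ± 0.252, AMOTL2 at -0.07 ± 0.367 and YAP1 at -0.07 ± 0.171.

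Without WT replicate 2, 5 of the 10 genes passed, against 31.2% of the 17909 genes tested in that fit. CCN2 was lower in SLUG KO by -0.86 ± 0.0888 (edgeR adjusted p = 2.74e-06), WWTR1 by -0.77 ± 0.095 (adjusted p = 1.6e-05) and TEAD1 by -0.39 ± 0.0961 (adjusted p = 0.00589). ANKRD1 and AMOTL2 were higher, by 0.55 ± 0.101 (adjusted p = 0.00058) and 0.52 ± 0.0878 (adjusted p = 0.000278). CCN1, at 0.0456 ± 0.0969, and TEAD3, at 0.12 ± 0.0952, turned their sign and did not pass. AMOTL2 also turned positive, near 0, without SLUG KO replicate 2, without a low-count filter and with the replicate block. CCN2, WWTR1, TEAD1 and ANKRD1 kept their direction without WT replicate 2. Of 18 regulators tested with all libraries 0 passed in edgeR (5 had an unadjusted p under 0.05, and DESeq2 called 1), against 9 without WT replicate 2 (3 higher, 6 lower). Among all genes tested, 3.33% passed with all libraries and 31.2% without WT replicate 2. Of 16 other targets, IGFBP3 alone passed with all libraries, higher by 1.26 ± 0.166 at 108.6 ± 9.14 against 44.6 ± 5.12 CPM (adjusted p = 0.0102, lost with the replicate block and without WT replicate 1 or any 1 SLUG KO library, with values of 1.22 to 1.34). Without WT replicate 2, 7 passed, all higher, where 3013 of all genes tested were higher and 2579 lower. CCN3 was at 15.4 ± 1.41 CPM in SLUG KO and 6.8 ± 2.32 CPM in WT (log2 1.15 ± 0.275, adjusted p = 0.0797, and 0.93 with adjusted p = 9.97e-05 without WT replicate 2).

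**Figure D5:**
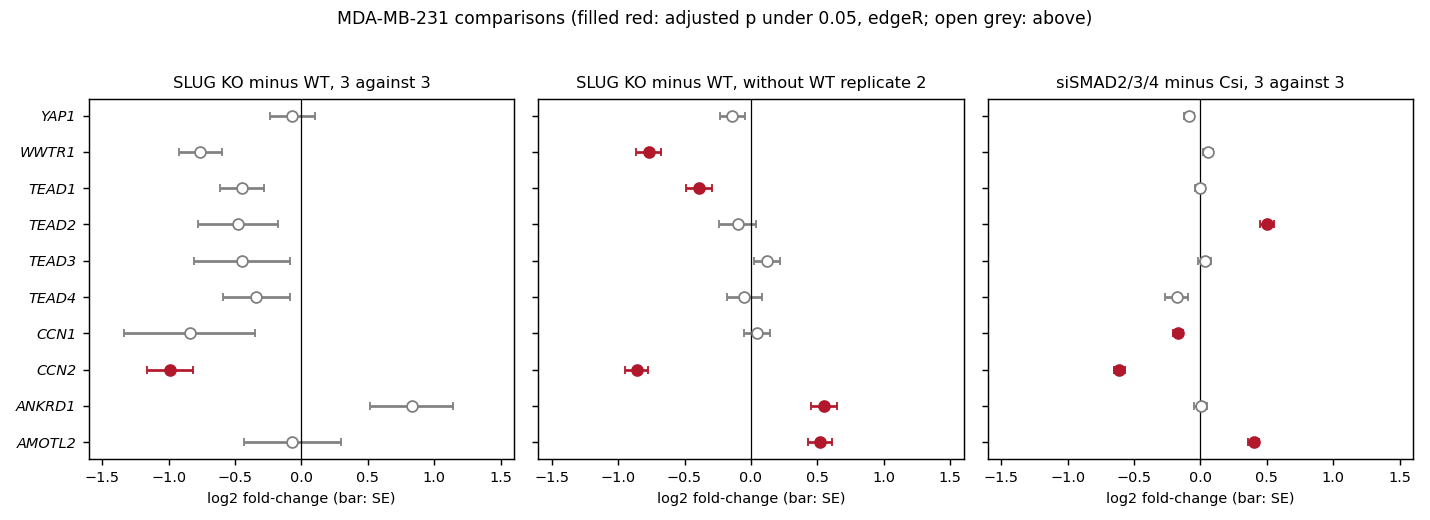
Log2 fold-change (point, bar for SE) of the 10 genes in MDA-MB-231 for SLUG KO against WT with all 6 libraries, the same without WT replicate 2, and siSMAD2/3/4 against Csi, with filled red points at adjusted p under 0.05. CCN2 is lower in all 3 panels, at -0.99, -0.86 and -0.61, and AMOTL2 moves from -0.07 to 0.52 when WT replicate 2 is left out.

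Depletion of SMAD2, SMAD3 and SMAD4 asked what a partial lowering of their RNA does in MDA-MB-231 cells. With the siRNAs SMAD2 stood at 24 against 90.6 CPM in Csi, SMAD3 at 165.6 against 266.4 CPM and SMAD4 at 16.8 against 55.4 CPM. Of the 10 genes 4 passed, against 36% of the 17696 genes tested, and 0 were DEGs, where 1.9% of all genes were. CCN2 fell by 0.61 ± 0.0421 on the log2 scale (edgeR adjusted p = 4.49e-13) and CCN1 by 0.17 ± 0.0387 (adjusted p = 0.000638). TEAD2 rose by 0.50 ± 0.0552 (adjusted p = 1.1e-08) and AMOTL2 by 0.40 ± 0.0422 (adjusted p = 3.66e-09). The ranges of these 4 genes did not overlap, and neither did those of YAP1, which did not pass. ANKRD1 (0.00 ± 0.0485, adjusted p = 0.97), TEAD1 (-0.00 ± 0.0376, adjusted p = 0.992), TEAD3 (0.03 ± 0.0496), WWTR1 (0.06 ± 0.0408), YAP1 (-0.09 ± 0.0386, adjusted p = 0.0869) and TEAD4 (-0.18 ± 0.0869, adjusted p = 0.101) did not pass. Per the file headers, siSMAD2/3/4 replicates 1 and 2 were aligned from another flow cell than the other 4 libraries. With flow cell as a term 4 of 10 passed, against 24.6% of all genes tested. In that fit the group difference rests on siSMAD2/3/4 replicate 3, the only 1 on the flow cell of Csi, so it is a weak check.

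Of 18 regulators tested in this comparison, 3 rose, 6 fell and 9 did not pass (median -0.08, all genes 0.0038). Among all 17696 genes tested 36% passed, with 2882 higher and 3483 lower. MOB1B, a LATS cofactor, fell by 0.77 ± 0.0522, AMOTL1 by 0.59 ± 0.0413 and LATS1 by 0.39 ± 0.0593, and VGLL3 rose by 0.50 ± 0.108. Of 16 other targets, 6 rose, 8 fell and 2 did not pass (median -0.07). NT5E fell from 482 ± 27.4 to 218 ± 2.35 CPM, or by 1.15 ± 0.041 on the log2 scale (edgeR adjusted p = 1.24e-19). GADD45A fell by 0.36 ± 0.0542, and ARHGEF17 and RBMS3 rose by 0.37 ± 0.0462 and 0.35 ± 0.0578. CCN3 (0.12 ± 0.0966) and CCN5 (0.27 ± 0.421) did not pass.

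WT MDA-MB-231 cells were also compared with MI Ctrl. The groups differ in line, in tumour status, in culture medium and in growth in monolayer or spheres, and these cannot be told apart. Of 10 genes 9 passed, all higher in WT, against 54% of the 18732 genes tested and 28.1% higher. CCN2 was higher by 6.40 ± 0.252 (edgeR adjusted p = 4.53e-06) and CCN1 by 5.15 ± 0.586 (adjusted p = 0.000296), and by 6.24 and 4.25 without WT replicate 2, when 9 of 10 passed against 74.9% of all genes tested. ANKRD1 had 19647 fragments in the 3 WT libraries and 2 in MI Ctrl, a ratio of 8568 with an exact 95% interval of 2372 to 70754 that covers counting error only, and without WT replicate 2 the ratio was 10388 (2875 to 85788). TEAD2 was higher by 2.00 ± 0.306, TEAD4 by 1.80 ± 0.289, AMOTL2 by 1.70 ± 0.377, TEAD1 by 1.63 ± 0.166 and WWTR1 by 1.39 ± 0.149. Without WT replicate 2 these differences were 1.62, 1.52, 1.09, 1.56 and 1.39, in the same order. YAP1 was higher by 0.47 ± 0.159 (adjusted p = 0.0413), a call lost in DESeq2, without a low-count filter, with the replicate block and without any 1 of 5 libraries. TEAD3 did not pass (0.41 ± 0.361, and -0.18 without WT replicate 2). YAP1 was at 0.53 without WT replicate 2. The basal markers summed to 13.8 to 24.8 CPM in WT, mostly EPCAM, and the luminal markers, mostly KRT8 and KRT18, to 924 to 1216 CPM against 1282 to 1321 CPM in MI Ctrl. The part of these markers was not tested.

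Of the regulators in that comparison, 8 were higher, 4 lower and 8 did not pass (median 0.24), and without WT replicate 2 there were 10 higher and 6 lower. Among all 18732 genes tested 54% passed, with 5259 higher and 4848 lower, and 74.9% passed without WT replicate 2. VGLL1 had no fragment in the 3 WT libraries, which makes it at least 237-fold lower than in MI Ctrl, with a floor of 3 counts over the group (at least 161-fold without WT replicate 2). PTPN14, a cytoplasmic phosphatase that binds YAP, was higher by 3.29 ± 0.279, and NF2 and AMOT were lower by -2.17 ± 0.326 and -5.49 ± 0.63. Without WT replicate 2 they were at 2.96, -2.66 and -7.04, and AMOT averaged 0.0678 ± 0.087 CPM in WT. Of the other targets 13 were higher, 1 lower and 2 did not pass (median 1.76, all genes 0.059). TGFB2 was higher by 6.10 ± 0.266, AXL by 6.08 ± 0.319 and NT5E by 4.08 ± 0.247, whereas IGFBP3 was lower by -3.49 ± 0.178. Without WT replicate 2, 13 were higher and 2 lower, and these 4 genes were at 6.25, 5.76, 4.22 and -3.49. In the rest of the CCN family, CCN3 was higher in WT by 2.09 ± 0.396, while CCN4 and CCN5 were lower by -4.24 ± 0.546 and -3.95 ± 0.556 (edgeR adjusted p = 0.00345, 0.000538 and 0.00082). Without WT replicate 2 they were at 2.28, -4.14 and -4.66.

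The genes most alike to each target across the 18 libraries of the shared batch were found by Pearson's r of log2 CPM among 20952 genes. The points share libraries and fall into spheres and MDA-MB-231 cells, so r mostly reflects that split and is a description only. For CCN1 they were WWC3 (0.989), PTPN21 (0.988) and CLCN6 (0.987). For CCN2 they were PRKCA (0.985), CRIM1 (0.981), which is also on the list of other targets, and ZNF594 (0.979). For ANKRD1 they were ZFP28, ARMCX2 and TFPI2 (each 0.994), and for AMOTL2 SNX19 (0.98), C2CD2L (0.979) and WTIP (0.971).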

How the data were processed

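RNA from 24 libraries in 8 groups of 3 was measured. Per the study's methods, the authors made rRNA-depleted stranded libraries, trimmed reads with Trimmomatic, aligned them with STAR and counted with featureCounts. Per the file headers, that was version 2.0.0, on fragments with both ends mapped and a mapping quality of at least 30, with no strand option set. The deposited values are raw counts per gene on GRCh38.p13 with GENCODE 38, without normalization. No table pools libraries. Total counts were 14124688 to 38406952 per library; with 3 libraries in a group, a gene's precision is limited.

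Groups came from the sample labels. Symbols matched 60463 of 60708 genes (99.6%). With edgeR 4.0.16 in R 4.3.3, the 6 libraries of a comparison (12 for the interaction) entered 1 fit after filterByExpr and TMM, with the quasi-likelihood test and Benjamini-Hochberg adjustment over all genes tested. SE is the log2 fold-change divided by the square root of F. Levels are CPM after TMM over 24 libraries. Level per length divides CPM by exonic kilobases. With 3 against 3 libraries, the smallest p of an exact permutation is 0.1. Libraries with equal replicate numbers were not paired: correlations of their deviations ran from -0.185 to 0.0655.

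The members, lists and tests were chosen with earlier results of these data known. All 10 members, the targeted genes, CCN3 to CCN6 and, per comparison, up to 4 passing genes of each list with the largest absolute log2 fold-change are named, with the 3 genes most alike to each target. Alternatives were DESeq2 1.42.0, its size factors in edgeR, no filter, at least 10 counts in every library, a replicate block, wider fits, flow cell as a term and leaving out each library. The 5 genes set beside ANKRD1 were chosen after seeing the data. Tests were tried on simulated counts with 200 changed genes (log2 changes of 1 or 2 in size). For SLUG KO against WT (17428 genes), 5 of those changed by 1 and 60 of those changed by 2 were called, and for TGFβ in MI-spheres (16863 genes) 77 and 94. One check gene is not reported here.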

Additional observations from a re-analysis of the deposited data

Results flagged for a closer look

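The response of these genes to TGFβ differed between MI- and MII-spheres in the test of that difference (edgeR, interaction of line and TGFβ, 3 libraries per group). Of all 18591 genes tested 22.4% passed it, so passing alone does not set a gene apart. Values are MII response minus MI response on the log2 scale. Among the members, AMOTL2 differed by 1.57, CCN2 by -1.13, TEAD2 by -1.12, TEAD1 by 0.35 and YAP1 by -0.28. Among the Hippo regulators named in the text, VGLL1 differed by 2.33, LATS2 by 0.93, VGLL3 by -0.55 and PTPN14 by 0.42. Among the other target genes, NT5E differed by 0.90, TGFB2 by 0.84, IGFBP3 by 0.75 and FOXF2 by 0.73. Within each list these are the passing genes with the largest absolute differences. The regulators WWC1 (0.4), MAP4K4 (-0.28) and TAOK2 (0.25) passed with smaller ones. So did the other targets ASAP1 (-0.64), CCDC80 (0.47) and F3 (0.3). The FOXF2 difference (adjusted p = 0.0351) was lost in DESeq2 (0.0836), without a low-count filter (0.0915) and in 8 of 12 fits that left out 1 library.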

How the results depend on the processing

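The number of members that passed was within 1.5 times of the reported one in every alternative for 7 of the 8 comparisons (MI 6 to 7, MII 6 to 8, lines 6 to 8, difference of responses 5 to 6, siSMAD2/3/4 4 to 5, WT against MI Ctrl 8 to 9). For SLUG KO against WT, where 1 passed, it was 2 in DESeq2, 3 when all 18 libraries of the batch shared 1 fit and 0 to 5 when 1 library was left out, with 5 without WT replicate 2. With the replicate block, which the pairing check does not call for, it was 0 in edgeR (3 at an unadjusted p under 0.05); beside CCN2 the block lost YAP1 in WT against MI Ctrl (adjusted p = 0.146), IGFBP3 and SNAI2 in SLUG KO (0.0635 and 0.108) and gained TEAD1 in MI-spheres (0.0251), and it changed no other call. The number of all genes called for SLUG KO against WT was 581, against 1213 in DESeq2, 973 without a low-count filter, 260 with at least 10 counts in every library, 255 with the block, 4174 with 18 libraries and 133 to 5592 when 1 library was left out; for WT against MI Ctrl it was 10107, and 6527 with at least 10 counts. TEAD1 was the largest TEAD in 15 libraries per length and 24 by raw counts. The group with the highest level stayed for 10 members with DESeq2 size factors and for 8 with library totals. Of 2010 alternative values of single genes, 1914 kept direction and call, 48 lost and 18 gained the call, and 30 changed sign. The changed signs, on the log2 scale, were TEAD4 in MI-spheres (-0.0317 with at least 10 counts, -0.16 to 0.16 leaving out 1 library), YAP1 in MII-spheres (0.00727 in DESeq2, 0.00596 without a filter, 0.0026 with 12 libraries), TEAD4 and CCN3 between stimulated lines (-0.16 to 0.29 and -0.0463 to 0.26 leaving out 1 library) and the CCN1 difference of responses (-0.26 to 0.0797). In SLUG KO, leaving out 1 library gave -0.66 to 0.12 for TEAD3, -1.12 to 0.0456 for CCN1 and -0.28 to 0.52 for AMOTL2, and AMOTL2 was at 0.028 without a filter and 0.0817 with the block. With siSMAD2/3/4, TEAD1 was at 0.00154 in DESeq2, 0.00469 with its size factors, 0.0103 with at least 10 counts, 0.018 with flow cell as a term and -0.0167 to 0.0159 leaving out 1 library, TEAD3 at -0.0609 with flow cell, and ANKRD1 at -0.000258 without a filter and -0.045 to 0.0536 leaving out 1 library. TEAD3 in WT against MI Ctrl ran from -0.18 to 0.61. The causes of these shifts were not tested. Low counts limit CCN2 and TEAD4 in spheres and ANKRD1 there.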
